A study of Sus scrofa with 74 samples.

Results

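The extracellular matrix of skeletal muscle is the connective tissue that wraps fibres, bundles and the whole muscle. Fibroblasts secrete most of it as fibrillar collagens, proteoglycans and glycoproteins, and a basement membrane of laminin, collagen IV and nidogen lies on the surface of every fibre, with collagen VI linking it to the fibrils outside. COL6A3 encodes a chain of collagen VI, and SPARC encodes a secreted glycoprotein that binds collagen. Pigs vary in how much of this tissue, and how much fat within it, their loin muscle holds. The comparison described here asks which other transcripts differ between animals whose loin has much and little of these 2 matrix transcripts.

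The samples are loin muscle (M. longissimus dorsi) from 74 pigs, the F2 generation of Duroc crossed with Pietrain, taken at slaughter at a mean end weight of 110 kg and hybridised with 1 Affymetrix Porcine Genome Array per animal. No animal was treated and all 74 form a single group: the labels give a running number and neither drip loss, sex, family, age nor slaughter date. By the study's methods these pigs come from full-sib families, include both sexes and are free of the malignant hyperthermia mutation. Family is not in the labels, and the p values treat siblings as independent. Label numbers run from 1 to 33 (24 animals, called the first block) and from 60 to 114 (50 animals, the second block), and the labels do not say what the gap between them stands for.

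The animals compared were chosen from the measured values themselves. Each array was scaled to a common level and taken to log2, the most intense probe set (the group of short oligonucleotides that reads 1 transcript) of COL6A3 and of SPARC was turned into a z score over the 74 arrays, and the mean of both z scores was the matrix score. Within the first block the 8 highest and 8 lowest animals were taken, and within the second block the 16 highest and 16 lowest. This gave 24 high and 24 low animals, 48 of the 74, and left 26 middle animals in neither group.

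The score ran from -3.66 to -0.22 (median -0.79) in the low animals, from -0.73 to 0.55 (median 0.06) in the middle animals and from 0.10 to 1.5 (median 0.95) in the high animals. In the second block the last low animal had a score of -0.22 and the next animal, in the middle, -0.19, while the last high animal had 0.74 and the next 0.55. In the first block the corresponding scores were -0.76 and -0.73 at the low end and 0.10 and -0.06 at the high end. COL6A3 lay between 11.52 and 12.91 (median 12.63) in the low and between 12.88 and 13.59 (median 13.30) in the high animals, and SPARC between 13.87 and 14.65 (median 14.51) in the low and between 14.45 and 15.12 (median 14.85) in the high animals, all as log2 scaled intensity. These values chose the groups, so the difference between the groups in them was not tested. The groups overlap slightly in each gene, since the choice rested on the mean of both and was made within blocks. The first block lay lower in the score, and 1 of its low animals, number 4, had the lowest score of all.

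**Figure D1:**
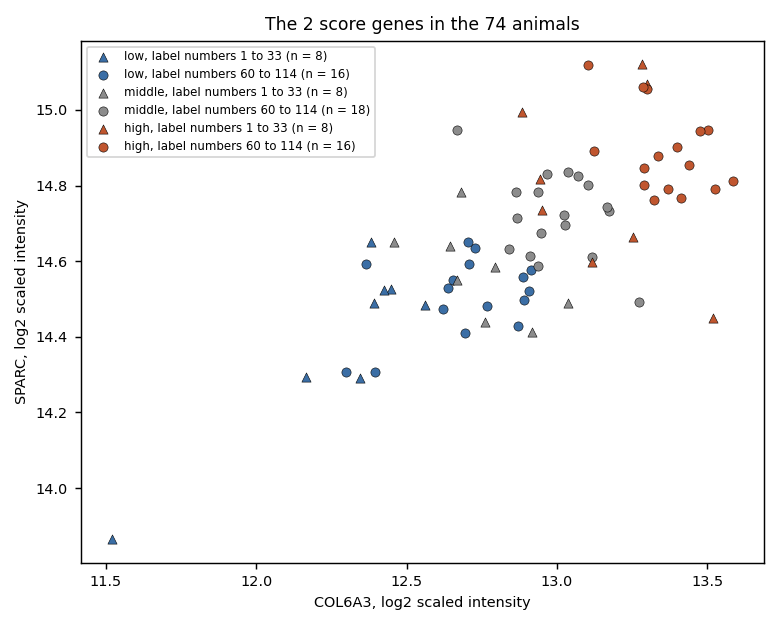
Log2 scaled intensity of COL6A3 (horizontal axis) and SPARC (vertical axis), 1 point per animal, coloured by low, middle and high group and shaped by label block. The low animals sit at the lower left, the high animals at the upper right, and animal 4 of the first block lies apart at 11.52 for COL6A3 and 13.87 for SPARC.

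Muscle transcripts were strong on every array. The creatine kinase CKM lay between 15.07 and 16.34, the fast myosin light chain MYLPF between 15.22 and 16.41 and the slow myosin heavy chain MYH7 between 14.13 and 16.05 in the 74 animals, and ACTA1 and MYH4 have no probe set of that symbol. The level of the arrays before scaling was 118 ± 33.7 (SD, n = 24) in the high and 117 ± 25.1 in the low animals. The 3' to 5' difference of the EF1A control probe sets, a sign of RNA integrity or labelling, was 0.43 ± 0.23 (SD, n = 8) in the high and 0.71 ± 0.14 (n = 8) in the low animals of the first block, and 0.71 ± 0.26 and 0.79 ± 0.19 (n = 16 each) in the second block, whereas those of GAPDH and actin had means of 0.18 and 0.18, and of 1.76 and 1.74, in the high and low animals. The EF1A difference moved with the groups in the first block, and a fit with it as a further term, chosen after the data had been seen, called 936 probe sets higher and 544 lower. With that term 2 of 10 integrins and matrix receptors, 3 of 11 leukocyte markers and 5 of 24 secretory pathway genes were higher, against 5, 6 and 8 without it.

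Of the 11998 probe sets tested, 1282 were higher (10.7%) and 695 lower (5.79%) in the high than in the low animals at an adjusted p under 0.05 by limma with the block in the model. The median difference over all probe sets tested was 0.00. Higher probe sets made up 64.8% of the calls, and 81.7% (656 higher, 147 lower) when the values were used as deposited, without scaling. Taken as 1 probe set per gene, 577 of 4888 genes were higher (11.8%) and 278 lower (5.69%), and these shares are the background against which each list of genes below is read. The high and low groups were drawn from the same arrays on which the other genes were read, so a p describes covariation with COL6A3 and SPARC and not the effect of a condition. Differences are on the log2 scale, high minus low, with the standard error after the sign ±. Intensities of different genes depend on their probes and are not compared with each other. Without animal 4, another choice made after seeing the data, 1098 probe sets were higher and 485 lower. Of the 99 called genes picked by the naming rule described below, SGK2, MAOB, FBXO32, TIMP1, ITGA5, KDELR2, NDUFA5 and ETFDH lost their call. List members outside that rule lost theirs too, as the collagen processing list went from 9 to 8 higher genes. In a whole muscle sample, more cells of a type and more RNA per cell cannot be told apart.

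Most structural matrix genes that could be tested were higher in the high animals. Members of a list without a probe set of their symbol, or with dim ones, were not tested, which left 4 of 11 fibrillar collagens, 7 of 20 genes of collagen VI and the basement membrane and 24 of 41 proteoglycans and glycoproteins. Of the fibrillar collagens, 3 of 4 tested genes were higher and 0 lower (median difference 0.66, against 0.01 over all genes). COL5A1, a chain of the collagen V that starts fibrils, lay between 9.54 and 11.14 (median 10.77) in the low and between 10.94 and 12.52 (median 11.40) in the high animals. Of the 24 high animals 21 lay above the highest low animal, and the difference was 0.77 ± 0.10 (adjusted p = 4.8e-07). COL1A2, a chain of the main collagen of muscle connective tissue, ran from 7.76 to 9.60 (median 9.08) in the low animals and from 8.88 to 12.05 (median 9.68) in the high animals, a difference of 0.75 ± 0.16 (adjusted p = 0.00065) with 13 high animals above all low ones. COL5A3 differed by 0.57 ± 0.09 (adjusted p = 2.7e-05). COL3A1, the second main fibrillar collagen, was read by a dim probe set and differed by 0.24 ± 0.16 (adjusted p = 0.33), with its groups overlapping almost completely. COL1A1 has no symbol in the annotation. The probe set that the study's tables give it lay below the intensity limit and differed by 0.51 ± 0.16 in a fit of all probe sets (adjusted p = 0.052). COL5A2 also lay below the limit and differed by -0.10 ± 0.32 in that fit (adjusted p = 0.91).

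Collagen VI and the basement membrane were higher in all 7 tested genes (median 0.40). COL6A2, the partner chain of COL6A3, lay between 9.09 and 10.63 (median 9.86) in the low and between 9.81 and 11.97 (median 10.54) in the high animals. Its difference was 0.79 ± 0.12 (adjusted p = 7.6e-06), larger in the first block (1.30) than in the second (0.54), a gap between blocks that did not pass the test over all probe sets. NID2, a nidogen that ties laminin to collagen IV, ran from 8.32 to 9.89 (median 9.14) in the low animals and from 9.21 to 10.82 (median 9.78) in the high animals, and 15 low animals lay below every high animal (0.69 ± 0.10, adjusted p = 7.6e-06). COL4A2 differed by 0.51 ± 0.13, the laminin chains LAMB1, LAMB2 and LAMC1 by 0.40, 0.33 and 0.26, and COL15A1 by 0.39. For LAMC1 1 of its 4 probe sets passed and for LAMB1 1 of 2. COL4A1 and LAMA4, named by the study's tables, were higher by 0.41 ± 0.09 (adjusted p = 0.0016) and 0.50 ± 0.09 (adjusted p = 9.4e-05).

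Proteoglycans and glycoproteins of the matrix were higher in 16 of 24 tested genes and lower in 0, with a median of 0.64. FN1, fibronectin, the adhesive glycoprotein that integrins grip, lay between 11.22 and 13.10 (median 12.50) in the low and between 12.66 and 13.93 (median 13.13) in the high animals. All 24 high animals lay above the low median and 19 low animals below every high animal, with a difference of 0.79 ± 0.11 or 1.73-fold (adjusted p = 1.2e-06), nearly the same in both blocks (0.80 and 0.78). COMP, a glycoprotein of tendon and cartilage that binds collagen, had the largest difference of all genes tested. It ran from 3.09 to 9.01 (median 6.66) in the low animals and from 6.12 to 11.61 (median 9.06) in the high animals, and 12 high animals lay above all low animals, a difference of 2.36 ± 0.39 or 5.12-fold (adjusted p = 3.3e-05). In the first block this was 3.55 and in the second 1.76. COMP is also the single tested gene of 10 on a list of tendon and cartilage markers. TNMD and SCX, which define tendon cells, have no probe set of that symbol, and ACAN and COL2A1 lay below the limit.

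THBS1, thrombospondin 1, differed by 1.1 ± 0.22 (adjusted p = 0.00034) with all 3 of its probe sets called. TNC, tenascin C, lay between 3.82 and 8.45 (median 6.78) in the low and between 2.41 and 10.29 (median 7.97) in the high animals, so the groups spanned each other although 23 of 24 high animals lay above the low median (1.28 ± 0.36, adjusted p = 0.011). Among the small leucine-rich proteoglycans, which set the spacing of collagen fibrils, BGN differed by 0.89 ± 0.18, PRELP by 0.94 ± 0.15, ASPN by 0.91 ± 0.24 and DCN by 0.45 ± 0.07, whereas LUM, at 0.43 ± 0.17, did not pass (adjusted p = 0.07). VCAN (0.84), FBLN1 (0.71), TNXB (0.65), MFAP2 (0.63), MGP (0.56) and the fibrillin FBN1 (0.41) also passed. SPARCL1, the closest relative of SPARC, and vitronectin VTN both differed by 0.01. POSTN, periostin, was higher by 0.97 ± 0.26 (adjusted p = 0.0086), with 1 animal of the high group, number 14, far above the others at 13.31.

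**Figure D2:**
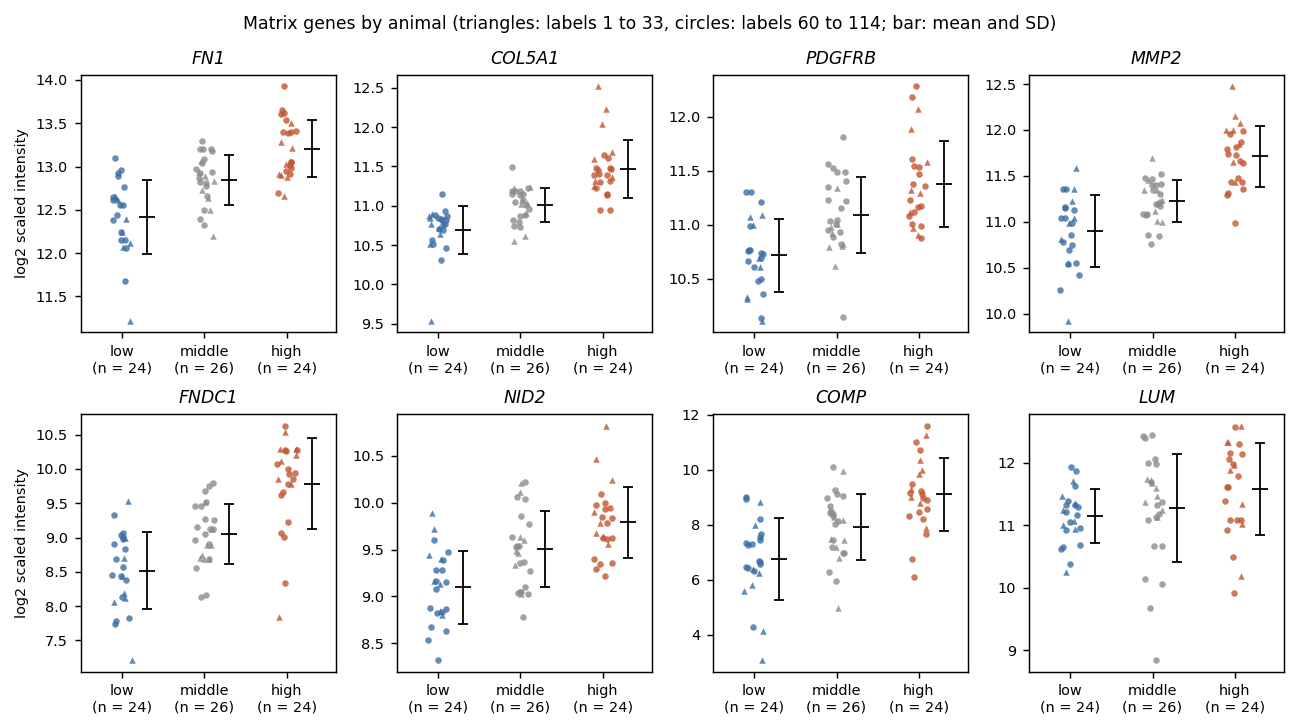
Log2 scaled intensity (vertical axes) of 8 matrix genes in the low, middle and high animals (horizontal axes), 1 point per animal, with the mean and SD of each group as a bar. FN1, COL5A1, PDGFRB, MMP2, FNDC1, NID2 and COMP were called higher in the high animals with the middle animals lying between, and LUM did not pass.

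Genes that make and modify collagen were higher as well. Of 12 tested genes for collagen processing and crosslinking 9 were higher and 0 lower, with a median of 0.47. FKBP10, a prolyl isomerase that helps procollagen fold, ran from 7.42 to 8.95 (median 8.18) in the low animals and from 8.04 to 10.36 (median 8.88) in the high animals (0.79 ± 0.13, adjusted p = 3.2e-05). CRTAP, part of the prolyl 3-hydroxylation complex, differed by 0.67 ± 0.10 and SERPINH1, the collagen chaperone HSP47, by 0.56 ± 0.12. BMP1, the protease that cuts the procollagen C-propeptide, differed by 0.76 ± 0.20 and lay between 3.84 and 8.89 (median 7.65) in the low and between 7.57 and 9.63 (median 8.31) in the high animals. The lysyl hydroxylases PLOD1 and PLOD3 (0.37 and 0.47) and the galactosyltransferase COLGALT1 (0.46) passed as well. Of the lysyl oxidases, which crosslink collagen, LOXL1 (0.41) and LOXL4 (0.46) passed and LOX itself, with values from 2.37 to 11.43 in the high animals, did not (0.94 ± 0.35, adjusted p = 0.055).

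Of 24 tested genes for folding and export from the endoplasmic reticulum 8 were higher and 1 lower (median 0.13). KDELR3, a receptor that returns chaperones to the endoplasmic reticulum, ran from 7.0 to 9.07 (median 8.35) in the low animals and from 8.02 to 10.53 (median 9.22) in the high animals. 17 high animals lay above all low ones, a difference of 1.00 ± 0.15 (adjusted p = 9e-06). The translocon subunit SEC61B (0.38 ± 0.08), the disulfide isomerases PDIA4 (0.34 ± 0.07) and PDIA6 (0.33 ± 0.07), KDELR2 (0.41 ± 0.14) and calreticulin CALR (0.32 ± 0.09) passed with smaller differences. The signal peptidase subunit SPCS3 was lower by 0.25 ± 0.08, and HSPA5, the main chaperone of the compartment, differed by 0.07 ± 0.09 (adjusted p = 0.66).

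Several enzymes that break matrix down were also higher. Of 12 tested genes for breakdown and its inhibitors 6 were higher and 0 lower (median 0.42). MMP2, gelatinase A, lay between 9.92 and 11.59 (median 10.99) in the low and between 10.99 and 12.48 (median 11.74) in the high animals, and 16 high animals exceeded every low one (0.82 ± 0.10, adjusted p = 4.8e-07). CTSK, the collagen-degrading cathepsin K, differed by 0.80 ± 0.13 with 18 high animals above every low one, ADAMTS1 by 0.72 ± 0.17 and the fibroblast protease FAP by 0.67 ± 0.14. Of the tissue inhibitors of metalloproteinases, TIMP1 passed at 0.69 ± 0.24 (adjusted p = 0.038), with 1.61 in the first and 0.24 in the second block, and its call was lost without animal 4 and without animal 23. TIMP2 (-0.06 ± 0.14, adjusted p = 0.81) and TIMP3 (0.15 ± 0.09, adjusted p = 0.28) did not pass.

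Of 10 tested integrins and matrix receptors 5 were higher: the syndecans SDC1 (0.77 ± 0.24) and SDC2 (0.50 ± 0.14), which are heparan sulphate proteoglycans of the cell surface, the fibronectin receptor chain ITGA5 (0.48 ± 0.17), the collagen receptor ANTXR2 (0.47 ± 0.08) and CD47 (0.43 ± 0.14). ANTXR2 ran from 8.69 to 9.77 (median 9.47) in the low animals and from 9.36 to 10.34 (median 9.93) in the high animals, and 15 high animals lay above every low one. ITGB1, the common beta chain of the collagen and laminin integrins, differed by 0.15 ± 0.09 (adjusted p = 0.26). Of 11 genes of TGF-beta and connective tissue growth factor signalling 2 were higher, a count of 18.2% beside 11.8% over all genes. These were TGFB3 (0.71 ± 0.16, adjusted p = 0.002) and PDGFRB, a receptor for platelet-derived growth factor. PDGFRB lay between 10.11 and 11.30 (median 10.71) in the low and between 10.87 and 12.28 (median 11.31) in the high animals, with 17 low animals below every high animal (0.67 ± 0.11, adjusted p = 2.5e-05). TGFB1 differed by 0.36 ± 0.15 (adjusted p = 0.094), and CCN2 and PDGFRA have no probe set of that symbol.

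Some markers of the cells that live in the connective tissue differed too. Of 11 tested fibroblast markers 9 were higher and 0 lower (median 0.41), among them THY1 (0.67 ± 0.12), CCDC80 (0.64 ± 0.12), the intermediate filament vimentin VIM (0.56 ± 0.09) and IGFBP5 (0.56 ± 0.14). Of these 11, FBN1 and DPT are also on the proteoglycan and glycoprotein list. The summed scaled intensity of the list lay between 14.75 and 15.62 (median 15.36) on the log2 scale in the low and between 15.48 and 16.40 (median 15.81) in the high animals. VIM ran from 13.16 to 14.66 (median 13.76) in the low animals and from 13.25 to 15.22 (median 14.34) in the high animals, a shift of the whole group with wide overlap. Of 8 smooth muscle and pericyte markers 3 were higher (37.5%, beside 11.8% over all genes, median 0.21), PDGFRB, TAGLN (0.45 ± 0.12) and MCAM (0.35 ± 0.10). ACTA2 differed by 0.23 ± 0.10 (adjusted p = 0.12), and SMTN (0.19), CNN1 (0.11), KCNJ8 (0.05) and RGS5 (-0.13) did not pass either. Summed, that list lay at 13.51 to 14.76 in the low and 13.47 to 15.14 in the high animals. Of 11 endothelial markers 3 were higher (27.3%, median 0.14), TIE1, CLDN5 and PECAM1, the last by 0.29 ± 0.09 in 1 of its 2 probe sets. ERG (0.25), CDH5 (0.15), CAV1 (0.14), ENG (0.11), VWF (0.105), EGFL7 (0.09), ESAM (0.03) and TEK (-0.01) did not pass. The summed endothelial list lay at 12.86 to 14.14 in the low and 13.66 to 14.43 in the high animals.

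Adipocyte markers had the largest median of the lists with more than 1 tested gene, 1.01, with 9 of 17 tested genes higher and 0 lower. ADIPOQ, the adipocyte hormone adiponectin, lay between 6.89 and 10.65 (median 8.94) in the low and between 8.02 and 12.19 (median 10.22) in the high animals. The groups overlapped, 7 high animals exceeded all low ones and the difference was 1.35 ± 0.30 (adjusted p = 0.0014). PPARG, the master regulator of fat cell formation, differed by 1.58 ± 0.39 (adjusted p = 0.0037), LIPE, hormone-sensitive lipase, by 1.51 ± 0.35, and FASN, fatty acid synthase, by 1.32 ± 0.36 with all 3 probe sets called. DGAT2 (1.22), CIDEA (1.09), ELOVL6 (1.06), PCK1 (1.01) and the fatty acid carrier FABP4 (0.95) passed. The 8 that did not pass include SCD (1.03, adjusted p = 0.1), LPL (0.42), CFD (0.08), RETN (-0.12) and AGPAT2 (-0.04). Of all 17 markers 4 had a negative difference, the lowest -0.14. The summed list lay between 14.99 and 16.08 (median 15.35) in the low and between 14.85 and 17.12 (median 15.70) in the high animals, and no marker lay at the floor of the scale. With the groups drawn by SPARC alone 11 of 17 markers were higher (median 1.25) and by COL6A3 alone 4 (0.64), and within the first block the count was 0 and within the second 7 (medians 0.89 and 1.00).

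Leukocyte markers were higher in 6 of 11 tested genes and lower in 0 (median 0.49). TYROBP, an adaptor of macrophages and other myeloid cells, ran from 6.40 to 9.28 (median 8.20) in the low animals and from 7.59 to 10.46 (median 9.06) in the high animals (0.78 ± 0.19, adjusted p = 0.0043). ITGB2 (0.69 ± 0.17), FCER1G (0.67 ± 0.17), LAPTM5 (0.63 ± 0.20), C1QC (0.62 ± 0.18) and CD14 (0.40 ± 0.14) passed, and CD163 did not (0.48 ± 0.19, adjusted p = 0.069). PTPRC, the common leukocyte antigen CD45, and the lymphocyte markers CD3E, CD2, CD4 and CD8A lay below the intensity limit. The summed list lay between 11.78 and 13.62 in the low and between 12.40 and 14.17 in the high animals. With the groups drawn by COL6A3 alone 8 of 11 markers were higher (median 0.58) and by SPARC alone 0 (0.30), and within the first block the count was 5 and within the second 0 (medians 0.83 and 0.37). The nerve marker S100B was higher by 0.48 ± 0.11, and MBP of the same list differed by -0.05. Of the 3 tested erythroid markers 0 passed by limma, and 0 had an unadjusted p under 0.05.

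Since the fat and leukocyte markers moved with the groups, the comparison was repeated with the mean z score of each list as a further term, a choice made after the data had been seen. With the adipocyte markers in the model 491 probe sets were higher and 96 lower, and with the leukocyte markers 357 and 59. Among the 24 proteoglycans and glycoproteins, 13 were higher with the adipocyte term and 10 with the leukocyte term. For collagen VI and the basement membrane the counts were 2 and 4 of 7, for collagen processing 5 and 2 of 12, for breakdown 3 and 3 of 12, for fibroblast markers 5 and 5 of 11 and for the fibrillar collagens 3 of 4 in each. The median differences of these lists, in that order, were 0.55, 0.38, 0.41, 0.46, 0.37 and 0.53 with the adipocyte term and 0.48, 0.39, 0.30, 0.11, 0.42 and 0.55 with the leukocyte term. FN1, COL5A1, COL6A2, COMP, MMP2, CTSK, PDGFRB and THY1 were called in both fits. Of the 24 secretory pathway genes 3 and 2 were higher in these fits, of the 10 integrins and receptors 2 and 1, and of the 11 endothelial markers 0 and 0. Without animal 4 and with neither term, 15 proteoglycans and glycoproteins, 7 genes of collagen VI and the basement membrane, 8 of collagen processing, 5 of breakdown, 7 fibroblast, 8 adipocyte and 5 leukocyte markers were higher. With the groups drawn by SPARC alone 3 of 7 genes of collagen VI and the basement membrane, 3 of 12 of collagen processing and 3 of 12 of breakdown were higher. The leukocyte markers had 5 of 11 higher with the adipocyte term, and the adipocyte markers 7 of 17 with the leukocyte term.

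**Figure D3:**
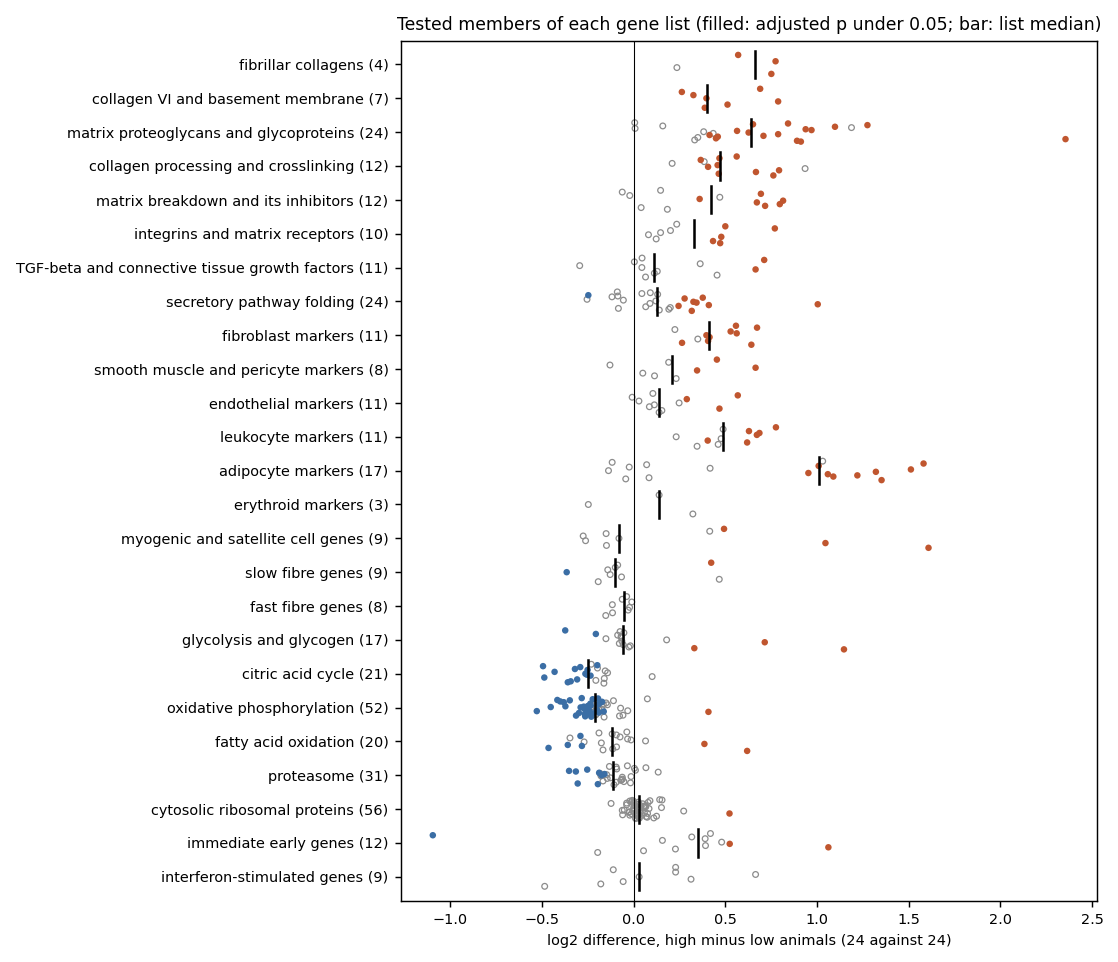
Log2 difference between 24 high and 24 low animals (horizontal axis) of each tested gene of the lists with 3 or more tested genes (vertical axis, number tested in brackets); filled points passed, open points did not, and bars are list medians. The medians of the matrix, fibroblast, leukocyte and adipocyte lists lie to the right of 0, those of the citric acid cycle (-0.25) and oxidative phosphorylation (-0.21) to the left, and those of fast fibre (-0.05) and ribosomal genes (0.03) near 0.

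Few genes of the slow and fast fibre lists were called. Other muscle genes outside these lists, CMYA5, ASB11 and POPDC3 among them, were lower and are given below. Of 9 tested slow fibre genes 1 was higher and 1 lower (11.1% each, median -0.10), beside 11.8% higher and 5.69% lower over all genes. Of 8 fast fibre genes 0 passed by limma (median -0.05), nor did any at an unadjusted p under 0.05. MYH7 lay between 15.12 and 15.90 (median 15.50) in the low and between 14.13 and 16.05 (median 15.43) in the high animals and differed by -0.07 ± 0.08 (adjusted p = 0.64), and MYH2, the fast oxidative myosin, by -0.12. TPM3, a tropomyosin of slow fibres that other cells also make, was higher by 0.42 ± 0.09 and MYL3, a slow myosin light chain, lower by 0.36 ± 0.13. Of 9 myogenic genes 3 were higher (33.3%, beside 11.8% over all genes) and the list median was -0.08. CHRNA1, the alpha chain of the muscle acetylcholine receptor, ran from 6.34 to 10.20 (median 8.28) in the low animals and from 8.06 to 12.21 (median 9.58) in the high animals, a difference of 1.61 ± 0.27 or 3.05-fold (adjusted p = 3.2e-05), with 8 high animals above every low one and 8 low animals below every high one. NCAM1, a cell adhesion molecule, was higher by 0.49 ± 0.12. IGF2, an insulin-like growth factor, was higher by 1.05 ± 0.22 (adjusted p = 0.00083), with 9 of its 10 probe sets called. MYOD1, the myogenic factor MyoD, differed by 0.42 ± 0.16 and did not pass (adjusted p = 0.06). MSTN, MEF2A, DES, MYF6 and MEF2D were not called either, at -0.28, -0.26, -0.15, -0.15 and -0.08.

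Genes of mitochondrial energy metabolism were lower in the high animals. In the citric acid cycle 13 of 21 tested genes were lower and 0 higher, beside 5.69% lower over all genes, with a median of -0.25. DLAT, a subunit of the pyruvate dehydrogenase complex, lay between 10.00 and 10.68 (median 10.33) in the low and between 9.43 and 10.49 (median 10.03) in the high animals. Of the 24 high animals 1 lay above the low median, and the difference was -0.36 ± 0.08 (adjusted p = 0.0012). IDH3A, a catalytic subunit of isocitrate dehydrogenase, ran from 10.25 to 11.79 (median 11.11) in the low animals and from 9.70 to 11.37 (median 10.59) in the high animals, a difference of -0.49 ± 0.10 (adjusted p = 0.00032) in both of its probe sets. PDHA1 (-0.43 ± 0.10), SUCLA2 (-0.49 ± 0.15), fumarase FH (-0.31 ± 0.08), SDHB (-0.32 ± 0.07), SDHD (-0.29 ± 0.07) and both malate dehydrogenases (-0.26 each) also passed. Citrate synthase CS did not (-0.16 ± 0.09, adjusted p = 0.2).

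In oxidative phosphorylation 30 of 52 tested genes were lower and 1 higher, with a median of -0.21, and 50 of the 52 had a negative difference. The lower genes come from complex I (NDUFS7, -0.42 ± 0.11, NDUFS1, -0.40 ± 0.10, and NDUFA5, -0.45 ± 0.16), complex III (UQCRB, -0.28 ± 0.06), cytochrome c oxidase (COX7A1, -0.53 ± 0.16) and the ATP synthase (ATP5F1B, -0.23 ± 0.07). COX7A1, the form of its subunit made in muscle and heart, lay between 12.40 and 14.13 (median 13.39) in the low and between 11.33 and 13.75 (median 13.09) in the high animals, so the groups overlapped over most of their range. The called exception was COX6A1, the form of subunit VIa found outside muscle and heart, which ran from 10.07 to 11.04 (median 10.49) in the low animals and from 10.23 to 11.91 (median 10.86) in the high animals and was higher by 0.41 ± 0.09 (adjusted p = 0.002). It was not called with the adipocyte term (0.21, adjusted p = 0.16), the leukocyte term (0.28, adjusted p = 0.13), values as deposited (0.39, adjusted p = 0.067) or within either block. The muscle form COX6A2 has no probe set of that symbol.

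The number of these calls depends on the model. With the EF1A difference as a term 7 citric acid cycle and 19 oxidative phosphorylation genes were lower, with the adipocyte term 4 and 5, and with the leukocyte term 2 and 3, while the medians were -0.24 and -0.17, -0.22 and -0.19, and -0.20 and -0.20. In the same order, 544, 96 and 59 of all 11998 probe sets were lower in these fits, beside 695 without a further term. Without animal 4 the counts were 11 and 24. Values as deposited, without the scaling, gave 6 and 14. Groups drawn by COL6A3 alone gave 6 and 10, and by SPARC alone 7 and 8. Within the first block 1 and 0 genes were called lower and within the second 4 and 14, with medians of -0.24 and -0.18, and of -0.26 and -0.24.

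Of 20 tested genes of fatty acid oxidation 4 were lower and 2 higher (median -0.12), beside 5.69% lower and 11.8% higher over all genes. With the adipocyte term, the leukocyte term and values as deposited 0 were called lower, and with the EF1A term 2, ACADM and ETFDH. ACADM, which starts the oxidation of medium-chain fatty acids, was lower (-0.46 ± 0.12, adjusted p = 0.0053). ACSL1, which activates long-chain fatty acids, lay between 12.17 and 13.62 (median 13.24) in the low and between 11.92 and 13.24 (median 12.81) in the high animals, with 1 high animal above the low median (-0.36 ± 0.11). The 2 higher genes were ACAA1, a thiolase of peroxisomes (0.62 ± 0.16), and CPT1A, the form of the carnitine transferase that prevails in liver (0.39 ± 0.12), whereas CPT1B, the muscle form, differed by -0.18 and did not pass. In glycolysis 3 of 17 genes were higher (17.6%) and 2 lower (11.8%), with a median of -0.06. The higher ones were ALDOC (1.15 ± 0.24), HK1 (0.72 ± 0.17) and ENO1 (0.33 ± 0.08), forms that prevail outside adult muscle, while the muscle forms ENO3 (-0.03), PYGM (-0.05), PFKM (-0.15) and PGAM2 (-0.07) were not called and PKM was lower by 0.21 ± 0.07. UGP2, which makes the glucose donor for glycogen, was lower by 0.37 ± 0.11.

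PPARGC1A, the coactivator PGC-1alpha that drives mitochondrial gene expression, had the largest negative difference of all genes tested. It ran from 10.59 to 13.17 (median 12.11) in the low animals and from 7.79 to 13.21 (median 10.44) in the high animals. The high animals held both the lowest and the highest of the 74 values, 3 of 24 lay above the low median, and the difference was -1.55 ± 0.33 (adjusted p = 0.00093). It was -1.40 in the first and -1.62 in the second block. NR4A3, a nuclear receptor induced by exercise and adrenergic signals, was lower by 1.09 ± 0.29 (adjusted p = 0.0061) in both of its probe sets. EGR1 and IER2, also induced within minutes of a stimulus, were higher. EGR1 lay between 8.30 and 12.75 (median 11.30) in the low and between 9.98 and 13.15 (median 12.62) in the high animals, a difference of 1.06 ± 0.26 with all 3 probe sets called, and IER2 differed by 0.52 ± 0.15. FOS (0.39, adjusted p = 0.21) and JUN (0.16) did not pass. Of the 12 tested immediate early genes 2 were higher (16.7%, beside 11.8% over all genes) and 1 lower (8.33%, beside 5.69%).

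Among the other genes with the largest negative differences were RETREG1, a receptor for the turnover of endoplasmic reticulum (-0.83 ± 0.24), PPTC7, a mitochondrial phosphatase (-0.74 ± 0.20), and SLC16A3, the lactate exporter MCT4 (-0.58 ± 0.17). The ubiquitin ligases WWP1 (-0.68 ± 0.17) and FBXO32 (-0.57 ± 0.20) and the ubiquitin-like UBD (-0.61 ± 0.17) were lower as well. MAOB, TYW3, TRNP1 and NAA50, at -0.64 to -0.56, completed the 12 largest. FBXO32, atrogin-1, ran from 11.33 to 14.37 (median 13.19) in the low animals and from 10.97 to 14.01 (median 12.64) in the high animals, with 5 high animals above the low median. Of 31 tested proteasome genes 8 were lower and 0 higher, beside 5.69% lower over all genes (median -0.11), with PSMD12 (-0.35 ± 0.10) the largest, and the count was 0 with the adipocyte and 1 with the leukocyte term. Of 56 cytosolic ribosomal protein genes 1 was higher, RPL3 (0.52 ± 0.11), and 0 lower, and of 9 interferon-stimulated genes 0 passed by limma, with 2 at an unadjusted p under 0.05.

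Among the 12 largest positive differences, beside those described, AEBP1, a secreted collagen-binding protein, lay between 7.97 and 10.64 (median 8.81) in the low and between 8.85 and 12.32 (median 10.30) in the high animals, and 13 low animals lay below every high animal (1.47 ± 0.20, adjusted p = 1.2e-06). FNDC1, which carries fibronectin type III domains, ran from 7.22 to 9.53 (median 8.51) in the low animals and from 7.84 to 10.63 (median 9.93) in the high animals. 19 of the 24 high animals lay above every low one (1.27 ± 0.17, adjusted p = 1.5e-06). FCN2, a lectin that starts complement, was higher by 1.56 ± 0.38 (adjusted p = 0.0037), VMO1 by 1.64 ± 0.49 (adjusted p = 0.017) and the kinase SGK2 by 1.34 ± 0.45 (adjusted p = 0.035). The difference of SGK2 was -0.01 with the adipocyte term.

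**Figure D4:**
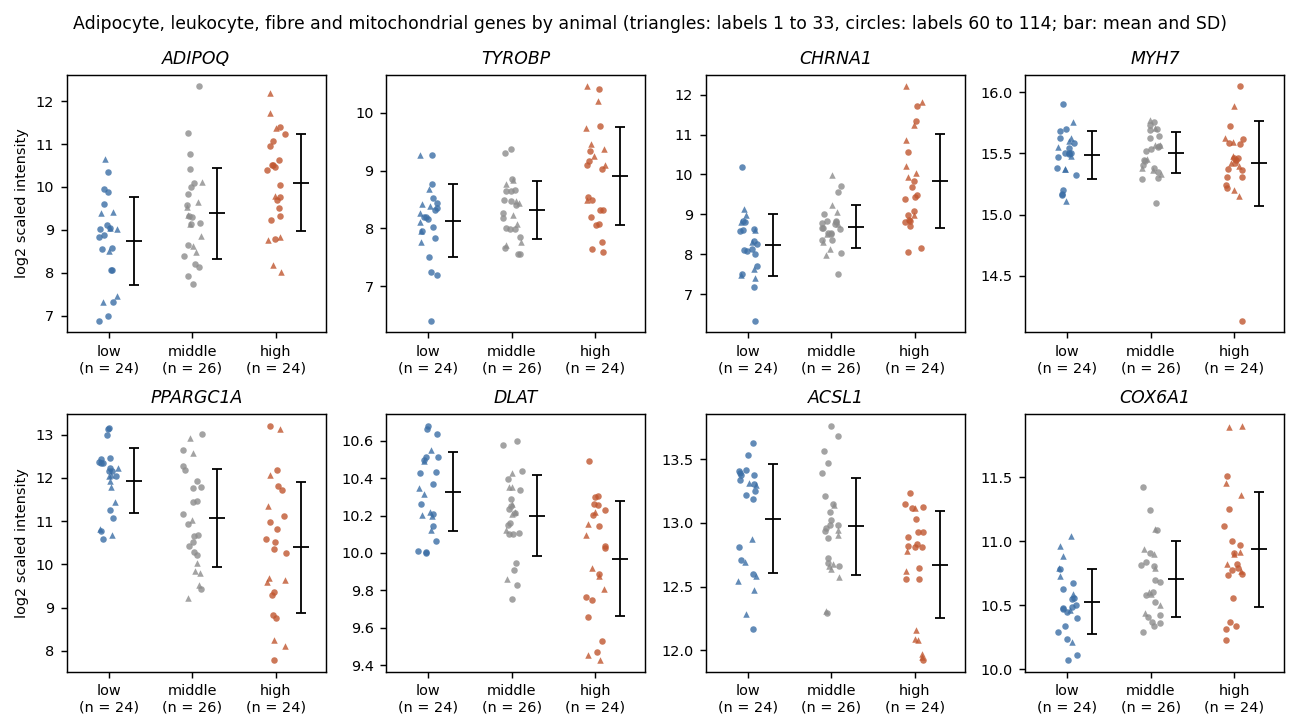
Log2 scaled intensity (vertical axes) of 8 genes outside the matrix lists in the low, middle and high animals (horizontal axes), 1 point per animal, with the mean and SD of each group as a bar. ADIPOQ, TYROBP, CHRNA1 and COX6A1 were higher and PPARGC1A, DLAT and ACSL1 lower in the high animals with wide overlap, and MYH7 did not pass.

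Both blocks gave the same sign for 1280 of the 1282 higher and 694 of the 695 lower probe sets, a share that the pooled fit itself makes likely. Within the first block, 8 against 8 animals, 405 probe sets were higher (3.38%) and 75 lower (0.625%), and within the second, 16 against 16, 430 were higher (3.58%) and 111 lower (0.925%). A test of the difference between blocks called 0 of 11998 probe sets by limma, with 1263 (10.5%) at an unadjusted p under 0.05. COL5A1 (1.15 and 0.59), FKBP10 (1.20 and 0.59), THY1 (1.01 and 0.50) and BGN (1.46 and 0.61) had the larger difference in the first block. So did HK1 (1.52 and 0.31), BMP1 (1.63 and 0.33), RPL3 (0.98 and 0.29) and SDC2 (1.02 and 0.24). COL1A2 (0.54 and 0.86) and ADIPOQ (1.01 and 1.52) are examples with the larger difference in the second block. The mean score was -1.47 in the low and 0.62 in the high animals of the first block, and -0.67 and 1.08 in the second block.

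**Figure D5:**
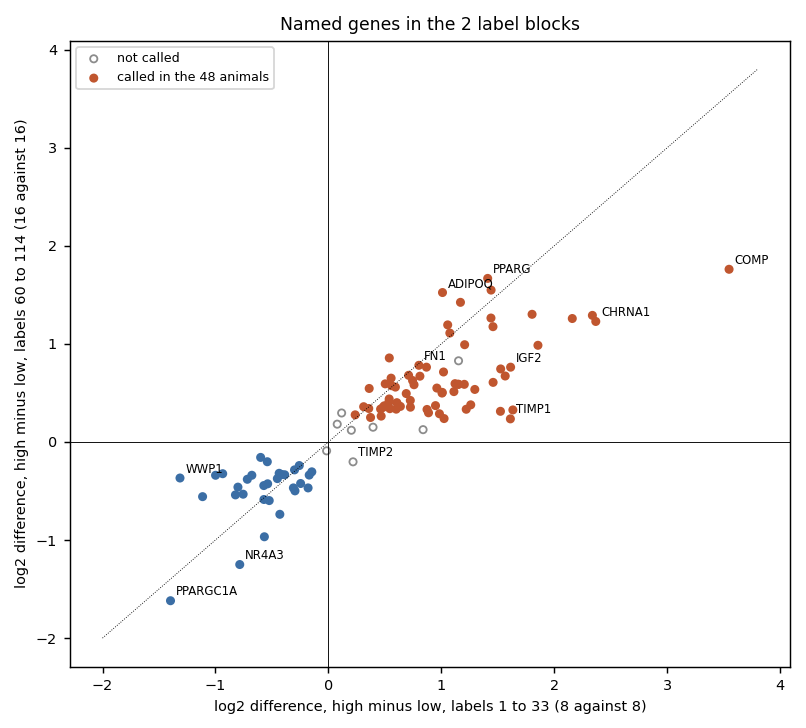
Log2 difference of each named gene between high and low animals in the first block (horizontal axis, 8 against 8) and the second block (vertical axis, 16 against 16), with the dotted line marking equal differences. Called genes lie in the upper right or lower left, COMP at 3.55 and 1.76 the farthest up and PPARGC1A at -1.40 and -1.62 the farthest down, and TIMP2 changes sign between blocks without passing.

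The 26 middle animals were in neither group and give the relation over a narrow range of the score. Their slope on the score was tested in the same way, and 0 probe sets passed by limma, with 484 of 11998 (4.03%) at an unadjusted p under 0.05. By sign alone, 1023 of the 1282 probe sets that were higher in the high animals had a positive slope (79.8%, beside 50.3% of all tested), and 466 of the 695 lower ones a negative slope (67.1%, beside 49.7%). Of the called genes picked by the naming rule described below, 62 of 68 higher ones and 20 of 31 lower ones had the slope of the same sign. The slope per unit of score was 2.37 for COMP, 0.91 for FNDC1, 0.41 for FN1, 1.65 for PPARG and 1.13 for ADIPOQ. For IGF2 it was -0.52, opposite in sign to its difference, and for PPARGC1A -0.25.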

How the data were processed

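The authors isolated RNA from frozen muscle, scanned 1 array per animal and used GCOS 1.1.1 with global scaling to a target of 500, present calls and the PLIER algorithm. The deposited table holds linear intensity values of 24123 probe sets, 124 of them controls, and the step that gave its values is not named in the sources used here. Arrays were brought to the same trimmed mean, 500 with 2% left out at each end, values under 1 were set to 1, and log2 was taken. Present calls were not used here, and the 12000 of 23999 non-control probe sets with the higher median were kept (lowest median 139). Leaving out the 2 kept probe sets of COL6A3 and SPARC gave 11998. The array's annotation gives 1 symbol to 10069 probe sets, several to 198 and none to 13732, and updating symbols by gene number changed 0.

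Groups were compared with limma 3.58.1 in R 4.3.3 (lmFit and eBayes, group and block as terms) with Benjamini-Hochberg adjustment over all probe sets tested, and tables were made in Python 3.11.15 with numpy 2.4.6 and pandas 2.3.3. The fit was tested on simulated data. Each gene is read by its kept probe set of the highest median. Named genes are the 12 largest positive and 12 largest negative differences that passed with 1 sign in both blocks, up to 4 called genes of each list in its main direction and 1 in the other, and a set of key genes whatever their value. The other members of a list were given as examples after their values were seen. The members, the lists and these rules were chosen with earlier results of these data known. Alternatives were other normalizations, filters, splits of the score and further terms. Arrays have no read depth, and the number of animals limits the precision.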

Additional observations from a re-analysis of the deposited data

Results flagged for a closer look

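In the first block, where each group has 8 animals, a single animal can lie far from the other 7. Over the 108 named genes, the score and its 2 genes, 26 of 222 such groups had an animal whose gap to the nearest other passed Dixon's limit for 8 values. The score, COL6A3 and SPARC chose the groups, and many of the other genes were picked for their group difference. The groups are also the same animals read through genes that move together. The count of 26 can therefore not be set against a rate expected by chance. The groups of 24 and 16 animals were not checked in this way. The values were spread over 11 animals, and 10 of the 26 belong to animal 4 of the low group. It was lowest in the score (-3.66), COL6A3 (11.52), SPARC (13.87), FN1 (11.22), COL5A1 (9.54), CCDC80 (9.85), KDELR3 (7.0), IER2 (7.34) and PPARG (2.91, with the other low animals at 5.86 to 8.05), and highest in PDHA1 (10.81). Animal 28, also in the low group, was lowest in ACADM (12.04), BMP1 (3.84, the others at 6.74 to 7.71) and TYW3 (7.19) and highest in AEBP1 (10.64).

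Animal 23 of the high group, whose array had the lowest level before scaling, was lowest in FNDC1 (7.84), LAMC1 (11.48) and LOX (6.14) and highest in NDUFS7 (13.16). Of the other high animals, number 14 was highest in POSTN (13.31, the others at 7.80 to 10.10), number 32 in NR4A3 (11.95), number 11 in DCN (14.46) and number 20 in COL5A3 (10.81), and number 17 was lowest in THY1 (11.79). Of the other low animals, number 1 was highest in EGR1 (12.64), number 12 in TIE1 (8.79) and number 9 lowest in SDC1 (2.09, the others at 6.12 to 7.74). All values are log2 scaled intensities, except that of the score.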

How the results depend on the processing

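The 1282 higher and 695 lower probe sets were counted again under 16 alternatives. Fewer animals gave 405 and 75 in the first block alone, 430 and 111 in the second alone, and 751 and 273 with the highest and lowest 6 and 12 a side. Other ways to score gave 766 and 407 with SPARC alone, and 1201 lower with the continuous score over all 74 animals. Values as deposited gave 656 and 147, all probe sets that are not controls 394 lower, and the array level as a term 1057 lower. The terms chosen after seeing the data gave 491 and 96 (adipocyte markers) and 357 and 59 (leukocyte markers). The remaining counts were within 1.5 times the first ones, and the slope in the middle animals and the difference between blocks called 0 probe sets under every alternative run.

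Of the 99 called named genes, 17 were called with 1 sign under all 16 alternatives: COMP, CHRNA1, AEBP1, FNDC1, THBS1, KDELR3, MMP2, CTSK, FKBP10, FN1, COL6A2, COL5A1, THY1, CRTAP, PDGFRB, VIM and IDH3A. The adipocyte and leukocyte terms are means of those lists' own genes. Members of these lists were thus set against themselves, and their absence from the 17 carries no information. With the adipocyte term SGK2, which is not on that list, turned to -0.006. With the leukocyte term the uncalled MYH7 turned to 0.03 and LAPTM5, itself part of that term, to -0.106. The uncalled TIMP2 was 0.218 in the first block and 0.003 with the EF1A term. No other named gene turned sign in these fits. Without animal 4, 8 of the 99 calls were lost (named above), and without animal 23 those of TIMP1, ITGA5 and NDUFA5 were, while LUM and LOX passed. The cause was not tested. No paired analysis was possible because the animals form 1 labelled group.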

Other observations

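Further genes outside the lists, named after their values were seen, differed between the high and low animals at an adjusted p under 0.05 by limma. The cytoplasmic proteins TPM4 (0.66 ± 0.11), ACTN1 (0.68 ± 0.14), MYL6 (0.57 ± 0.11) and TAGLN2 (0.59 ± 0.13), which build or bind the actin cytoskeleton of cells other than muscle fibres, were higher, as were ezrin EZR (0.77 ± 0.13) and the annexins ANXA2 (0.76 ± 0.13) and ANXA5 (0.59 ± 0.10). THBS3, a thrombospondin (1.26 ± 0.19), PAMR1 (1.16 ± 0.17), the cadherin CDH11 of mesenchymal cells (0.79 ± 0.17) and F3, tissue factor (1.06 ± 0.21), had larger differences. The secreted Wnt antagonist SFRP1 (1.15 ± 0.25), the secreted protein DKK3 (0.65 ± 0.15) and the membrane-bound Wnt inhibitor APCDD1 (0.84 ± 0.14) were higher too. RRBP1 (0.66 ± 0.10), CKAP4 (0.69 ± 0.12) and RCN1 (0.73 ± 0.13), proteins of the endoplasmic reticulum, were higher. So was SEC31A (0.39 ± 0.07), a coat protein of the vesicles that leave the endoplasmic reticulum. For CKAP4 and for SEC31A 2 of 3 kept probe sets were called.

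Transketolase TKT (0.89 ± 0.20), PGD (0.75 ± 0.17) and TALDO1 (0.53 ± 0.15), enzymes of the pentose phosphate pathway, which supplies NADPH for fat synthesis, were higher, whereas the malic enzyme ME1, which also supplies it, differed by -0.02 ± 0.10 (adjusted p = 0.91). In the first and second block TKT differed by 1.325 and 0.67, PGD by 1.324 and 0.455 and TALDO1 by 1.04 and 0.281. APOE was higher by 1.13 ± 0.34 and the receptor TLR2 by 0.89 ± 0.18. Of the malate and aspartate shuttle, GOT1 (-0.54 ± 0.13), GOT2 (-0.29 ± 0.07), SLC25A11 (-0.38 ± 0.11) and SLC25A12 (-0.34 ± 0.08), named after their values were seen, were lower. COQ9, needed for coenzyme Q (-0.44 ± 0.09), the mitochondrial creatine kinase CKMT2 (-0.34 ± 0.08), the pyruvate dehydrogenase kinase PDK4 (-0.42 ± 0.10), PRKAA2, a catalytic subunit of the energy sensor AMPK (-0.36 ± 0.10), and the receptor PPARD (-0.54 ± 0.18) were also lower. So were the muscle genes CMYA5 (-0.42 ± 0.08), ASB11 (-0.50 ± 0.11) and POPDC3 (-0.42 ± 0.07). In the first and second block PDK4 differed by -0.778 and -0.239, PRKAA2 by -0.704 and -0.193 and PPARD by -1.017 and -0.304. The corresponding values were -0.563 and -0.381 for COQ9 and -0.371 and -0.322 for CKMT2.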
